A study of Homo sapiens with 6 samples.

Results

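The hypoxia response and glycolysis genes examined here are 35 genes picked by name, of 32353 genes in the deposited count table. They are HIF1A, 19 targets of the hypoxia-inducible factors and 15 core glycolytic enzymes, and each was found in the count table and in the FPKM table by its symbol. Membership follows what the genes do and uses no measured value, although the list was chosen with earlier results of these data known. RNA of CAL27 cells, an established human line of tongue squamous cell carcinoma, was read in 6 libraries, of which 3 came from control plasmid cells and 3 from cells overexpressing RBM24. RBM24 is an RNA-binding protein known chiefly as a splicing regulator in heart and skeletal muscle. All 6 libraries are of the same line, and the labels name no oxygen level, no other agent, and neither the promoter of the plasmids nor the time after their delivery. They do not say whether the 3 libraries of a group are separate cultures, so the p-values reflect the spread of these libraries alone, which may be technical.

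Hypoxia-inducible factors are pairs of proteins, an oxygen-regulated alpha subunit such as HIF1A and the constant partner ARNT, that bind short core motifs near their targets. With oxygen present, the prolyl hydroxylases of the EGLN family mark the alpha subunit for destruction through VHL, so the pathway is switched mainly at the HIF1A protein, which RNA counts do not measure. Targets include glucose and lactate transporters, most glycolytic enzymes, and genes for angiogenesis, acid handling and mitochondrial removal. Many carcinoma cells run glycolysis at a high rate even in air, and isozymes of one step can differ in control and in tissue.

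The libraries held between 53558773 and 68804210 gene counts. The RBM24 gene had 129, 159 and 220 counts in control against 8651, 5918 and 7648 in RBM24 libraries, a 40.5-fold difference (edgeR, adjusted p = 2.162e-15). All 9 squamous epithelial markers had a mean of at least 1 FPKM, with SFN highest. Their summed level was 606.1 to 636.5 FPKM in control and 695.9 to 709.5 in RBM24 libraries, so it moved with the group. SFN had 274 to 301 FPKM in control and 331 to 354 in RBM24 libraries. CDH1 (28.8 to 32.6 against 34.6 to 35.5 FPKM), KRT6A (8.1 to 8.45 against 8.85 to 9.98) and EPCAM (107 to 114 against 118 to 124) were also higher in every RBM24 library, while KRT17, KRT14, TP63, KRT5 and DSG3 overlapped. Over all tested genes, 12.2% were higher in every RBM24 library on the FPKM scale. Fibroblast, immune, endothelial and muscle markers summed to at most 1.96, 0.72, 1.77 and 0.59 FPKM in any library, the muscle sum being 0.30 to 0.34 in control and 0.55 to 0.59 in RBM24 libraries, and PTPRC, CD3E, KDR and DCN were at or near 0. The part of the squamous and muscle sums in the results was not tested. On the first principal component, which held 33.0% of the variance, control library 1 scored -33.4, control library 2 -4.95 and control library 3 -0.0363, while RBM24 libraries ranged from 9.28 to 15.4. Calls that appear only without control library 1 are given with and without it.

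Promoter sequence was read for the members that RefSeq lists. Windows of 300 bases, from 250 before to 50 after a transcription start on GRCh38.p14, were listed for 31 of the 35 genes. They were searched for the core motif of the hypoxia-inducible factors, ACGTG or GCGTG, on both strands, with overlapping matches merged into 1 place. At least 1 window of 28 of the 31 genes (90.3%) held the motif, against 14318 of all 27305 symbols with a window (52.4%). A gene with more listed windows has more places to match, and the members were picked as known targets or enzymes. Counted by window, 39 of 55 member windows (70.9%) and 17012 of all 35116 windows (48.4%) held it. A match describes letters only and shows no binding. The 6 windows below are those of the kinase genes with the largest positive and negative fitted change (PFKFB4 and PDK1), of 2 genes known as classical hypoxia targets (CA9 and LDHA), of PFKL, which had the lowest p, and of PGK1, which has as many places as LDHA. Capitals mark the motif, and each sequence runs 5′ to 3′ on the strand of its gene. PDK1 lies at chr2:172555840-172556139 on the plus strand, PFKFB4 at chr3:48556754-48557053 on the minus strand, CA9 at chr9:35673678-35673977 on the plus strand, LDHA at chr11:18394313-18394612 on the plus strand, PFKL at chr21:44299803-44300102 on the plus strand and PGK1 at chrX:78103998-78104297 on the plus strand.
PDK1: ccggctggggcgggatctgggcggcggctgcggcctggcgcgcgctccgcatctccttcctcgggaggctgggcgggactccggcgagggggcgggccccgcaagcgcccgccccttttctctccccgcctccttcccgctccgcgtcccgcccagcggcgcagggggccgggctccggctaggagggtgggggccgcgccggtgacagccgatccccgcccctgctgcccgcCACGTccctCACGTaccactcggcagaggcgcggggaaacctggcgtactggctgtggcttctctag
PFKFB4: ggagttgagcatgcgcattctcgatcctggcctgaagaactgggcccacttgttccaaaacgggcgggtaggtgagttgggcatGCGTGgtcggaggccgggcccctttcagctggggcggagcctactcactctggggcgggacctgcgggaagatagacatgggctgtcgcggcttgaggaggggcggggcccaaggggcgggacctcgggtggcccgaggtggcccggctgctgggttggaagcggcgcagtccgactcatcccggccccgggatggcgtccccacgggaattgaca
CA9: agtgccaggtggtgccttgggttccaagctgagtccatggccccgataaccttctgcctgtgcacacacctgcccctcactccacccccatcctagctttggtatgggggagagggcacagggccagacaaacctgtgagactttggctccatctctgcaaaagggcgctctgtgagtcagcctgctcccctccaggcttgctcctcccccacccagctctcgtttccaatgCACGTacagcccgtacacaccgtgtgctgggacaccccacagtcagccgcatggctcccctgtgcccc
LDHA: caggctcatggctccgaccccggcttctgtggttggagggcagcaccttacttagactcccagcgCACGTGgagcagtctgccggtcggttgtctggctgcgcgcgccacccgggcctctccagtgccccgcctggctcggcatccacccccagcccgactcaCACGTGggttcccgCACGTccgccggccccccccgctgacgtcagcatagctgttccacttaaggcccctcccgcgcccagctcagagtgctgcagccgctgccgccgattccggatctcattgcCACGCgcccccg
PFKL: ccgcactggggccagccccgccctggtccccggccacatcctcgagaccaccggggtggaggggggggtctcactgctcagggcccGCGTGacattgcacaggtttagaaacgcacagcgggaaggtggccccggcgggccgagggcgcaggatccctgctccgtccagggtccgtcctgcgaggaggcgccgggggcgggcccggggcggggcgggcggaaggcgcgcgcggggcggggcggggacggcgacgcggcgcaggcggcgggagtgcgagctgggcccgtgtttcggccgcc
PGK1: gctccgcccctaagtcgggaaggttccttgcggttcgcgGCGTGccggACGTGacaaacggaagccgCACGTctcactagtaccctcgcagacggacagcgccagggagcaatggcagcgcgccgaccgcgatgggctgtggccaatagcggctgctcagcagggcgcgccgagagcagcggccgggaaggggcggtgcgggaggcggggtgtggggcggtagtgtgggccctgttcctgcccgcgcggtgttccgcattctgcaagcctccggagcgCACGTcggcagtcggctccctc
The windows of LDHA and PGK1 each hold 4 places, that of PDK1 holds 2, and those of PFKFB4, CA9 and PFKL hold 1 each. For a gene with more than 1 listed window, the one with the most places is shown. The other listed window of PDK1 holds 0 places and that of LDHA holds 1.

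Levels of different genes were compared in FPKM, the authors' deposited values per gene length. The core enzymes together took between 2.126% and 2.244% of all counts in each library. This leaves out CTD-2515O10.6, an entry that overlaps ALDOA and holds most counts of that locus. GAPDH, which oxidises glyceraldehyde 3-phosphate, had a mean of 2935 FPKM and was the 13th most abundant gene of the 31513 in the FPKM table. Next among the core enzyme entries were ENO1 (enolase) at 688, PKM (pyruvate kinase) at 441, TPI1 (triose phosphate isomerase) at 431 and LDHA (lactate dehydrogenase) at 377 FPKM. The hexokinases HK1 and HK2 were lower, with means of 19.4 and 15.2 FPKM. So were the phosphofructokinases PFKP and PFKL, at 18.6 and 17.5 FPKM. These 4 genes lay closer together than their library spread separates some of them, since PFKP and PFKL overlapped in the control libraries. HIF1A stood at 93.0 FPKM, above every one of its targets outside the core enzymes, of which SLC2A1 was highest at 30.7 FPKM. The lowest levels were those of PFKFB4 at 0.333 and SLC2A3 at 0.015 FPKM.

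**Figure D1:**
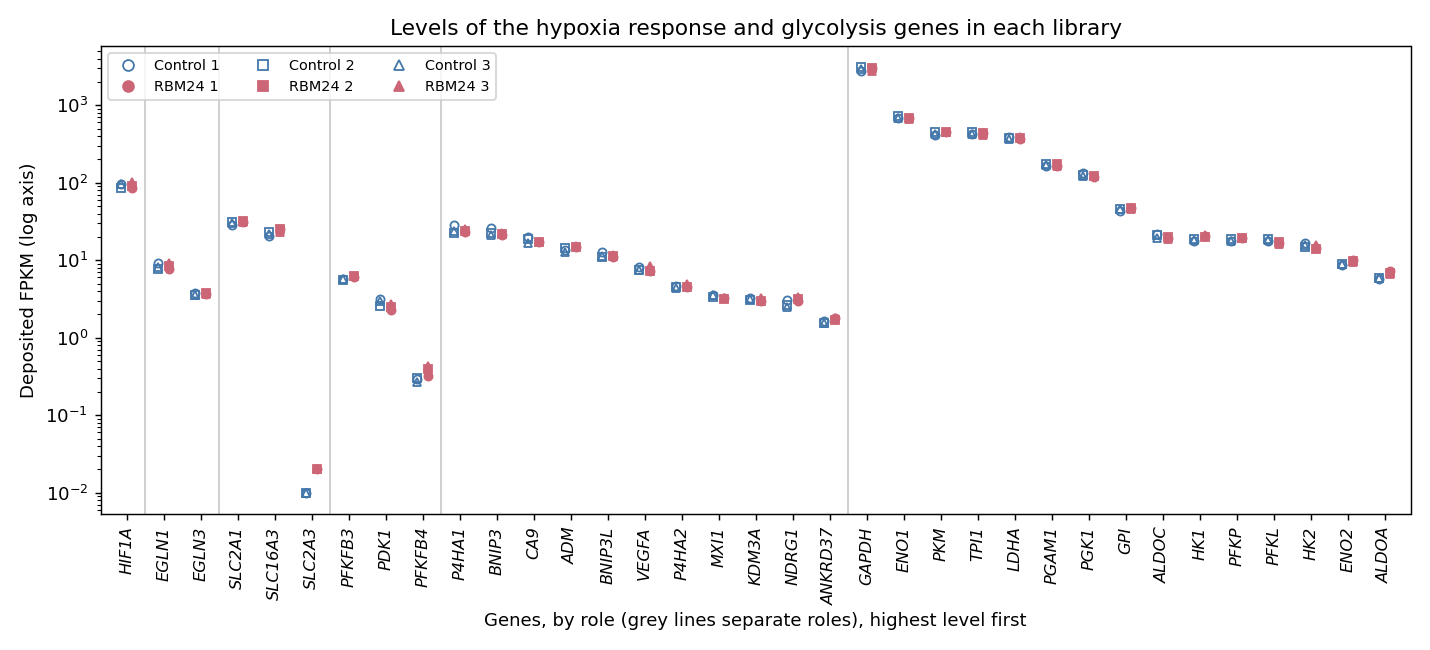
Deposited FPKM (vertical axis, log scale) of the 35 genes in the 3 control (open blue) and 3 RBM24 (filled red) libraries, 1 point a library, ordered by role and mean level. Core enzymes span from 2935 FPKM for GAPDH to 6.37 for ALDOA, and SLC2A3 lies lowest of the 35 genes at 0.015. The ALDOA entry took at most 1.27% of its counts summed with those of an overlapping entry, so 6.37 is uncertain as a level of aldolase A RNA.

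None of the 34 tested genes changed with RBM24 at an adjusted p under 0.05 in edgeR's quasi-likelihood test: 0 were called higher and 0 lower. Over all 17887 tested genes, 153 (0.855%) were called higher and 122 (0.682%) lower, so a list of this size would hold few calls at the background share. The lowest adjusted p among the members was 0.142, that of PFKL. DESeq2 and limma-voom also called 0 members, with lowest adjusted p of 0.0715 and 0.139. In bulk RNA, fewer cells with a transcript and less of it per cell cannot be told apart.

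At an unadjusted p under 0.05, edgeR gave 5 members higher (ALDOA, HK1, PFKFB4, SLC16A3 and NDRG1) beside a background of 6.62% of all tested genes, and 4 lower (PFKL, PDK1, MXI1 and HK2) beside 6.4%. Together these are 9 of 34 genes (26.5%), against 13.0% of all tested genes, and none of them passed adjustment over all genes. For 5 members the lowest RBM24 library exceeded the highest control library (ALDOA, HK1, PFKFB4, PFKFB3 and ENO2), beside 9.53% of all tested genes. For 3 members the highest RBM24 library was under the lowest control library (PFKL, MXI1 and ENO1), beside 8.62%. The count of higher members depends on the scale. On the deposited FPKM, whose library totals differ, 10 members were higher in all RBM24 libraries, with SLC16A3, ADM, ANKRD37, PKM and PFKP added, beside 12.2% of all tested genes, and the same 3 were lower, beside 4.8%. Fitted changes were small and had both signs, 15 positive and 19 negative. Their median log2 fold change was -0.026 over the 34 genes, -0.0029 over the 18 tested HIF targets and -0.035 over the 15 core enzymes, beside -0.0037 over all tested genes. The sign of the first medians is not stable: with total counts only they were 0.00422 for all members and 0.0274 for the HIF targets, on log2(FPKM + 1) 0.00601 and 0.0251, and without control library 1 0.00916 and 0.0386.

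The intervals limit how large a change the data allow. For 29 of the 34 genes the 95% interval of the fold change lay wholly within 1.25-fold either way, for 14 of the 15 core enzymes and 14 of the 18 HIF targets among them. Within 1.5-fold lay 33 of 34, with PFKFB4 as the exception. These intervals are not adjusted for the number of genes and cover the spread between these libraries only.

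**Figure D2:**
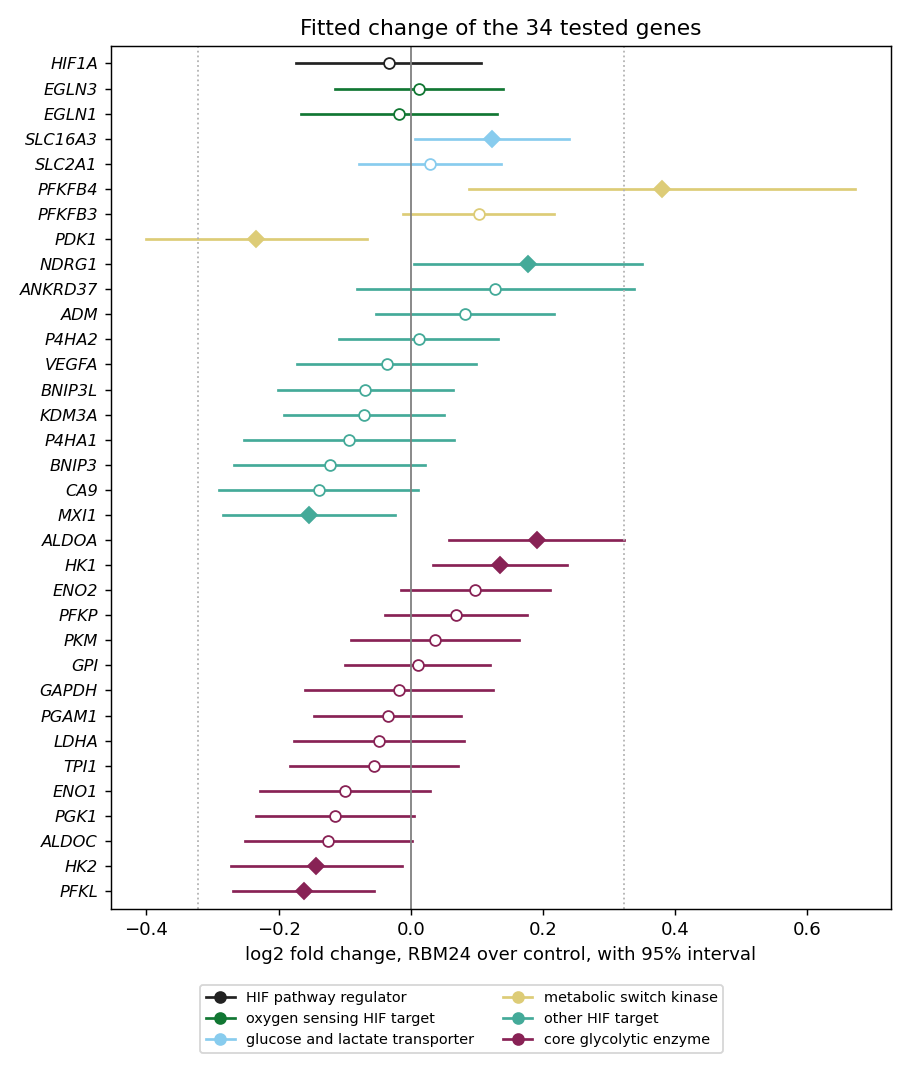
Fitted log2 fold change (RBM24 over control, horizontal axis) of the 34 tested genes with its 95% interval, coloured by role. Filled diamonds mark the 9 genes with an unadjusted p under 0.05, open circles the others, and dotted lines mark 1.25-fold either way. The estimates run from -0.23 for PDK1 to 0.38 for PFKFB4, and no gene passed adjustment.

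HIF1A itself, the oxygen-regulated subunit (chr14:61695513-61748259, plus strand, GENCODE 29 on GRCh38), had 556, 490 and 525 CPM in control and 478, 496 and 562 CPM in RBM24 libraries. The highest RBM24 and the highest control library nearly coincide, and the groups overlap. Its fold change was 0.977 (95% interval 0.887 to 1.08, edgeR adjusted p = 0.889). Among the oxygen sensors, EGLN1, the main hydroxylase of HIF1A, had 54.8, 45.8 and 47.0 CPM against 45.3, 48.5 and 52.0. EGLN3, the hydroxylase that is itself a strong HIF target, ran from 27.6 to 30.5 CPM in control and from 28.7 to 29.6 CPM in RBM24 libraries. Both overlap between groups, with log2 fold changes of -0.02 for EGLN1, which turns sign under total-count scaling and on the FPKM scale, and 0.01 for EGLN3. Leaving out control library 1 also turns the sign of HIF1A and EGLN1, to 0.01 and 0.065.

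SLC2A1, the widespread glucose transporter GLUT1, had 209, 228 and 216 CPM in control and 220, 229 and 217 CPM in RBM24 libraries. The values interleave, and the log2 fold change was 0.03 (SE 0.05, edgeR adjusted p = 0.866). SLC2A3, the high-affinity transporter GLUT3, was nearly unread, with 2, 3 and 3 counts in control and 7, 6 and 7 in RBM24 libraries. It was too low to test, and the ratio of its summed counts, 20 over 8 scaled by depth, was 2.32 with an exact 95% interval of 0.981 to 6.10, which covers counting error only. SLC16A3 (MCT4), which exports lactate, had 213, 234 and 218 CPM against 248.7, 248 and 227 CPM. RBM24 libraries 1 and 2 lay above all controls while RBM24 library 3 lay below control library 2, an overlap that is absent on the FPKM scale (23.11 against 23.03). Its log2 fold change was 0.12 (SE 0.05, edgeR adjusted p = 0.349). SLC16A3 shares 482 exon bases with CSNK1D on the opposite strand, whose mean CPM, not scaled by length, is 62.8% of that of SLC16A3. Whether the counting used strand is not known.

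The switch kinases had the largest estimates of both signs. PDK1, which inhibits pyruvate dehydrogenase and so holds pyruvate out of the mitochondria (chr2:172555373-172608669, plus strand), had 52.6, 41.7 and 46.7 CPM in control and 36.7, 39.8 and 43.5 CPM in RBM24 libraries. Control libraries 1 and 3 were the highest of the 6, and RBM24 library 3 lay above control library 2. Its log2 fold change was -0.23 (SE 0.08, edgeR adjusted p = 0.189). Without control library 2 it was -0.31 with an adjusted p of 0.0432, and without the filter on low counts it was -0.23 with 0.0104; the other fits did not call it.

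PFKFB4, a bifunctional enzyme that sets fructose 2,6-bisphosphate (chr3:48517684-48562015, minus strand), had 1.96, 2.01 and 1.78 CPM in control and 2.13, 2.55 and 2.81 CPM in RBM24 libraries. All RBM24 libraries were above all controls, by a narrow margin for RBM24 library 1. The fold change was 1.30 with an interval of 1.06 to 1.59, the widest of the 34 genes (edgeR adjusted p = 0.230). It shares 289 exon bases with UCN2 on the same strand, whose mean CPM is 28.8% of that of PFKFB4. PFKFB3, the family member whose kinase activity dominates, was more abundant and had 39.4, 37.6 and 37.6 CPM against 40.3, 41.5 and 41.2 CPM. Its groups also do not overlap, and its log2 fold change of 0.10 had an adjusted p of 0.441 in edgeR.

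Among the other targets, MXI1, an antagonist of MYC (chr10:110207605-110287365, plus strand), had 23.2, 21.6 and 22.5 CPM in control and 20.5, 19.7 and 20.2 CPM in RBM24 libraries. All RBM24 libraries lay below all controls, with a log2 fold change of -0.15 (SE 0.06, edgeR adjusted p = 0.287). NDRG1, a stress-induced growth regulator, had 41.4, 34.6 and 31.5 CPM against 38.4, 40.7 and 42.4 CPM. Control library 1 sat among the RBM24 libraries while the other controls were lower than all of them. With every library the log2 fold change was 0.18 (edgeR adjusted p = 0.367), and without control library 1 it was 0.29 (adjusted p = 0.0356), so the call rests on that library.

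CA9, the membrane carbonic anhydrase used as a hypoxia marker, had 35.4, 33.8 and 28.9 CPM in control and 29.9, 29.7 and 29.4 CPM in RBM24 libraries. Controls 1 and 2 were above, and control 3 below, a tight RBM24 group, and the log2 fold change was -0.14 (SE 0.07, edgeR adjusted p = 0.426). CA9 shares 643 exon bases with ARHGEF39 on the opposite strand, whose mean CPM is 80.3% of that of CA9. VEGFA, the angiogenic growth factor, had 131, 119 and 114 CPM against 112, 113 and 129 CPM. Each group held 1 high library, and the log2 fold change was -0.04, with an interval of the fold change from 0.887 to 1.07. ADM, which encodes the vasodilator adrenomedullin, ran from 31.9 to 37.4 CPM in control and from 36.6 to 37.4 CPM in RBM24 libraries, with a log2 fold change of 0.08.

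BNIP3 and BNIP3L, the receptors that target mitochondria for removal, had log2 fold changes of -0.12 and -0.07. For BNIP3 the controls read 152, 130 and 121 CPM and the RBM24 libraries 120, 124 and 127 CPM, so control library 1 was the highest of the 6, and without it the log2 fold change was -0.02. P4HA1, a collagen prolyl hydroxylase subunit, had the same layout, with 98.7 CPM in control library 1, 77.5 and 77.7 CPM in the other controls, and 76.8 to 82.0 CPM in RBM24 libraries. Its log2 fold change was -0.09 with all libraries and 0.03 without control library 1. P4HA2, its paralog, and KDM3A, a histone demethylase, had values of 0.01 and -0.07. ANKRD37, an ankyrin repeat target, had 0.13, with 3.72 to 4.14 CPM in control and 4.07 to 4.35 CPM in RBM24 libraries. UFSP2 overlaps ANKRD37 on the opposite strand, and its mean CPM is 827% of that of ANKRD37. None of these 6 genes passed the test (edgeR adjusted p from 0.475 to 0.955).

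The hexokinase and phosphofructokinase steps held 3 of the 4 core enzymes with an unadjusted p under 0.05 (PFKL, HK1 and HK2), and the paired isozymes had fitted changes of opposite sign. HK1 (chr10:69269984-69401884, plus strand), the housekeeping hexokinase, had 125, 130 and 123 CPM in control and 139, 134 and 141 CPM in RBM24 libraries, all of the latter higher. HK2 (chr2:74833981-74893359, plus strand), the HIF-inducible hexokinase, had 111, 95.6 and 99.9 CPM against 90.3, 87.8 and 99.2 CPM, with RBM24 library 3 above control library 2. Their log2 fold changes were 0.13 (SE 0.05) and -0.14 (SE 0.06), with edgeR adjusted p of 0.218 and 0.324.

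PFKL (chr21:44300051-44327376, plus strand), the liver-type phosphofructokinase, had 174, 187 and 176 CPM in control and 161, 165 and 153 CPM in RBM24 libraries. All RBM24 libraries were lower than all controls, with a fold change of 0.894 (interval 0.830 to 0.962, edgeR adjusted p = 0.142). An offset for GC content, added after seeing the data, gave -0.18 on the log2 scale with an adjusted p of 0.0149. PFKP, the platelet-type isozyme, had 150, 161 and 144 CPM against 160, 158 and 159 CPM, an overlap through control library 2, and a log2 fold change of 0.07 (edgeR adjusted p = 0.614).

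The isozyme make-up of a step was described as a share of the summed FPKM of 2 isozymes or paralogs, which cancels the scaling of a library. The 7 pairs were not tested, no background share over other pairs was computed, and 4 of the genes behind the separated pairs below (HK1, PFKL, ENO1 and ENO2) already have groups that do not overlap in CPM. HK2 made up 48.6%, 43.9% and 46.4% of HK1 plus HK2 in control and 40.8%, 41.0% and 42.8% in RBM24 libraries, or 46.3% ± 2.38 against 41.6% ± 1.10 (SD, n = 3 each). The difference was -4.73 percentage points and ran from -5.94 to -3.57 with 1 library left out. PFKP made up 49.9%, 49.9% and 48.7% of PFKP plus PFKL in control and 53.4%, 52.6% and 54.4% in RBM24 libraries, a difference of 4.02 points (3.54 to 4.45 with 1 library left out). ENO2 made up 1.24%, 1.21% and 1.30% of the enolase pair against 1.45%, 1.43% and 1.42%. The sum of HK1 and HK2, from 33.4 to 34.6 FPKM in control and 33.9 to 36.8 in RBM24 libraries, overlapped between groups. So did the sum of PFKP and PFKL, from 35.01 to 37.8 and from 35.5 to 36.5 FPKM. Other isozymes of these steps, such as PFKM, HKDC1 and ENO3, are not in the sums and shares. PFKM was lower in every RBM24 library than in every control library in CPM, beside 8.62% of all tested genes. Transcript GC is 52.95% for HK1 and 51.2% for HK2, and 57.5% for PFKP and 64.1% for PFKL. The other 4 pairs (PFKFB4, P4HA2, EGLN3 and BNIP3L with their partners) overlapped. The 7 pairs are not all paralogs among the members: no share was formed for ALDOA with ALDOC or for SLC2A1 with SLC2A3.

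**Figure D3:**
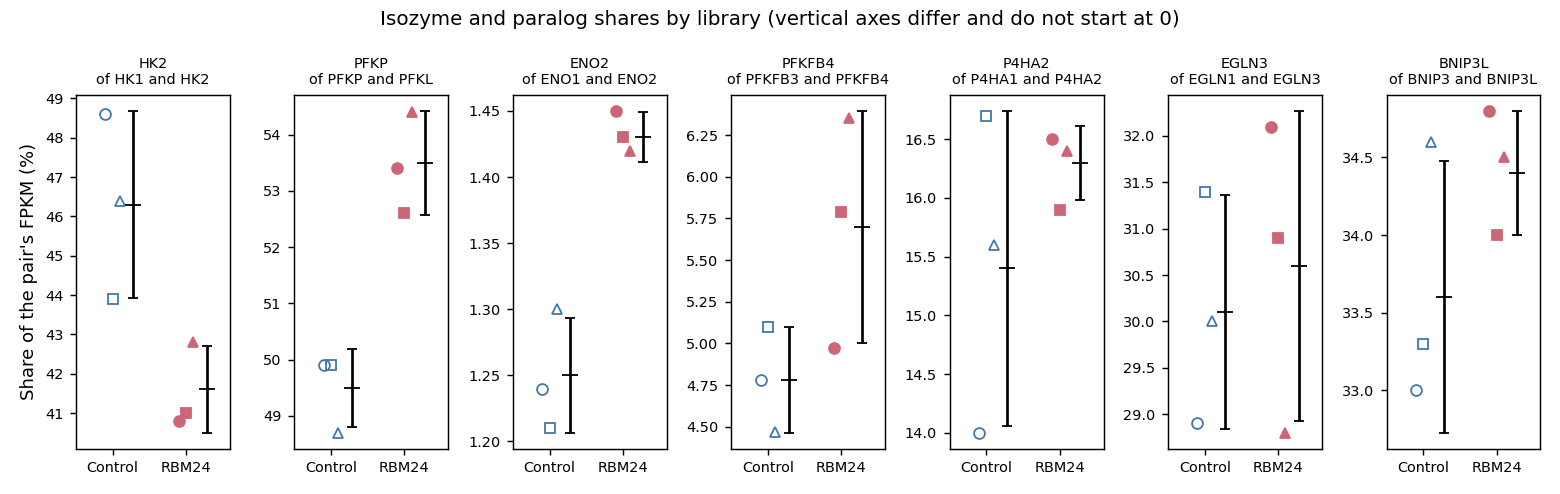
Share of 1 isozyme or paralog in the summed FPKM of its pair (vertical axes in percent, which differ and do not start at 0), for control (open blue) and RBM24 (filled red) libraries, with mean and SD over 3 libraries in black. HK2, PFKP and ENO2 have groups that do not overlap, and the other 4 pairs overlap.

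ALDOA, the main aldolase of most tissues (chr16:30064164-30070457, plus strand), had 24.4, 25.0 and 24.4 CPM in control and 30.0, 27.6 and 26.7 CPM in RBM24 libraries, all of the latter higher. Its log2 fold change was 0.19 (SE 0.06, edgeR adjusted p = 0.176). The count table gives ALDOA only a small remainder of the reads of its locus. A second protein-coding entry on the same strand, CTD-2515O10.6, shares 1657 exon bases with ALDOA and had 123622 to 160427 counts a library, where ALDOA had 1344 to 2071. ALDOA thus took 1.075%, 0.988% and 1.11% of the summed counts in control and 1.27%, 1.18% and 1.225% in RBM24 libraries. The large entry had a log2 fold change of -0.03 (edgeR adjusted p = 0.903), so the ALDOA value is uncertain as a measure of aldolase A RNA. ALDOC, the brain-type aldolase, had 54.1 to 62.8 CPM in control and 52.1 to 55.5 CPM in RBM24 libraries, with a log2 fold change of -0.12.

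The members with the highest FPKM were GAPDH, ENO1, PKM, TPI1 and LDHA, and none of them had an unadjusted p under 0.05 in edgeR. GAPDH had 7365, 8180 and 7417 CPM in control and 7867, 7676 and 7136 CPM in RBM24 libraries, with the highest library a control and the lowest an RBM24 library. Its fold change was 0.988 (interval 0.895 to 1.09), and its sign turns under total-count scaling and on the FPKM scale. PKM had 3980, 4242 and 3896 CPM against 4184, 4143 and 4103 CPM, and gene counts do not separate its splice forms. LDHA, which makes lactate, had 2652, 2505 and 2352 CPM against 2378, 2409 and 2474 CPM. Their groups overlap, and the log2 fold changes were 0.04 for PKM and -0.05 for LDHA. On the FPKM scale all RBM24 libraries of PKM lay above all controls, with means of 452 and 431 FPKM.

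ENO1, the main enolase, had 4015, 4223 and 3819 CPM in control and 3803, 3767 and 3685 CPM in RBM24 libraries, all of the latter lower by a margin that is narrow beside control library 3. ENO2, the neuronal enolase and a HIF target, had 41.5, 42.6 and 41.3 CPM against 46.0, 44.7 and 43.4 CPM, all of the latter higher. The log2 fold changes were -0.10 and 0.10, with edgeR adjusted p of 0.526 and 0.460. PGK1, phosphoglycerate kinase, had 803, 759 and 715 CPM against 686, 701 and 716 CPM, which overlap through control library 3, and a log2 fold change of -0.11 (edgeR adjusted p = 0.409). TPI1, PGAM1 (phosphoglycerate mutase) and GPI (glucose phosphate isomerase) had log2 fold changes of -0.06, -0.04 and 0.01 and overlapped between groups. Processed pseudogenes of these enzymes took few counts, 0.0328% of the GAPDH count over 31 entries and 0.439% of the PGAM1 count over 6 entries.

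Control library 1 gave the highest value of the 6 for 10 of the 18 tested HIF targets. Control library 3 gave the lowest for 8 and RBM24 library 1 for 6. The like shares over all tested genes were not computed, and control library 1 also lay farthest out on the first principal component. These counts are therefore not a trait of the members alone. The median deviation of the HIF targets from their mean, in log2 CPM, was 0.11, -0.01 and -0.07 for control libraries 1 to 3 and -0.04, -0.02 and 0.03 for RBM24 libraries 1 to 3. The controls thus spread more widely than the RBM24 libraries and enclose them. Among the core enzymes it was control library 2 that was highest most often, for 8 of 15, while control library 3 was lowest for 6 and RBM24 library 3 for 5. The spread between control libraries is therefore larger than the median difference between groups in both blocks.

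**Figure D4:**
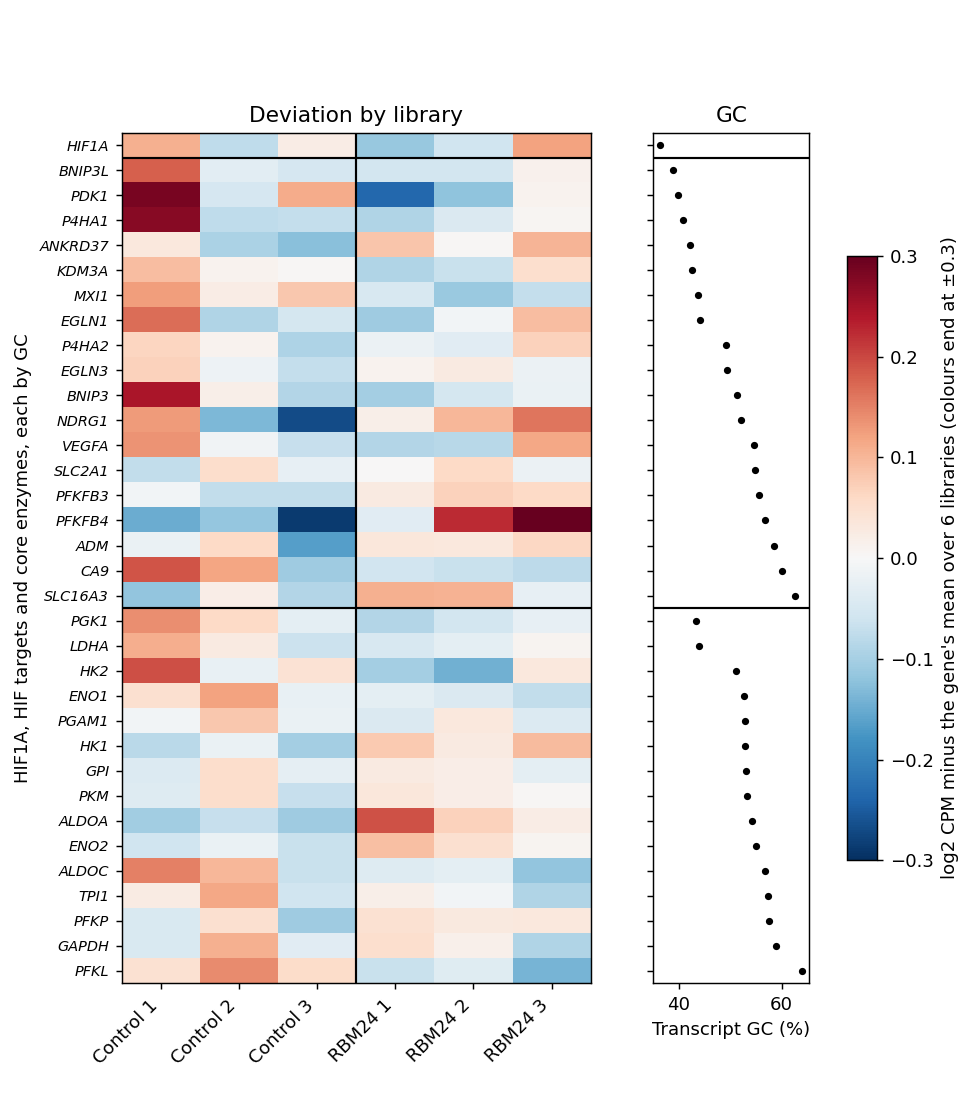
Deviation of each tested gene from its mean over the 6 libraries (colour, log2 CPM, ending at ±0.3), with HIF1A, the HIF targets and the core enzymes in blocks ordered by transcript GC, which the right panel gives in percent. Control library 1 is high for low-GC HIF targets such as BNIP3L, PDK1 and P4HA1. It is also high for BNIP3 and CA9, at 51.4% and 60.1% GC, and low for SLC16A3, at 62.65%.

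Deviations of the libraries followed the GC content of the transcript. Over 10014 genes with a mean log2 CPM above 3, split by GC into 5 groups of like size, the group with the lowest GC (30.2% to 40.7%) had a median deviation of 0.09 in control library 1 and -0.05 in control library 2. The group with the highest GC (57.7% to 73.9%) had -0.09 and 0.08 in the same libraries. Over the 34 members, whose values share libraries, Pearson's r between GC and deviation was -0.561 in control library 1, 0.492 in control library 2 and -0.317 in control library 3, and 0.493, 0.464 and -0.216 in RBM24 libraries 1 to 3. The median GC was 50.4% for the HIF targets, 53.3% for the core enzymes, 36.4% for HIF1A and 47.9% for all these genes. Each group holds libraries of both directions, and between the groups the median log2 fold change over all genes went from -0.0417 at the lowest GC through -0.0193, 0.001 and 0.0112 to 0.0139 at the highest. This span is wider than the medians of the members lie from 0, and its part in their values was not tested beyond the offset. With a GC offset in edgeR, PFKL alone of the members was called, and HIF1A and GPI turned sign.

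**Figure D5:**
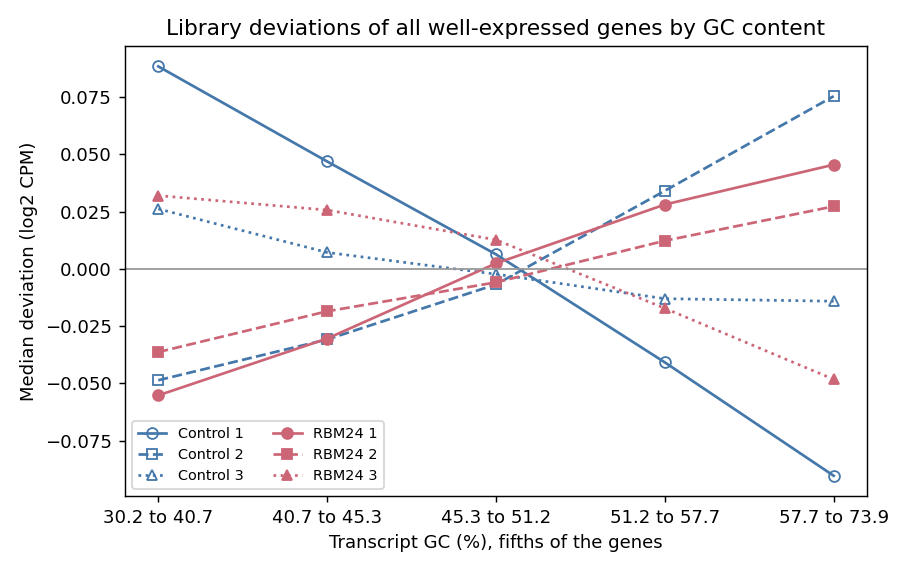
Median deviation (log2 CPM, vertical axis) of 10014 well-expressed genes in 5 groups by transcript GC (horizontal axis, percent), 1 line a library. Control library 1 goes from 0.09 to -0.09 and control library 2 from -0.05 to 0.08, and each group holds both directions.

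The largest number of motif places in any listed window of a gene was set beside the fitted changes. This number depends on how many windows RefSeq lists. The windows of SLC16A3 hold 0, 2, 0, 3 and 1 places, and those of PFKP 0, 0, 1 and 3. The 7 matched members with 3 or more places had a median log2 fold change of -0.115 (-0.14 to 0.12). The 21 with 1 or 2 places had -0.02 (-0.23 to 0.38), and the 3 with none had 0.01. These medians are descriptions, with no test, and their ranges overlap.

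Beyond the 35 genes, 83 other genes of the pathway were listed by function, and 72 were high enough to test. None was called at an adjusted p under 0.05 in edgeR, while 6 were higher and 4 lower at an unadjusted p under 0.05 (13.9% in all). That is close to the background, since 13.0% of all tested genes had such a p, 6.62% higher and 6.4% lower. In the HIF machinery, 14 of 15 genes were tested and 3 were higher at an unadjusted p under 0.05, beside 6.62% of all tested genes. The lowest adjusted p belonged to HIF1AN (FIH), the asparagine hydroxylase that blunts HIF activity, with 76.5, 74.0 and 75.7 CPM in control and 85.3, 83.3 and 85.7 CPM in RBM24 libraries. All RBM24 libraries were higher, with a log2 fold change of 0.17 (SE 0.05) and an edgeR adjusted p of 0.0936. DESeq2 gave the same change an adjusted p of 0.0391, and edgeR with the GC offset gave 0.0123. ARNT2, a partner subunit at a low level, had 0.709, 0.7996 and 0.969 CPM against 1.19, 1.26 and 1.27 CPM, with a log2 fold change of 0.57 (edgeR adjusted p = 0.158).

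Of 30 further HIF targets, all were tested, 2 were higher and 4 lower at an unadjusted p under 0.05, beside 6.62% and 6.4% of all tested genes, and the median log2 fold change was -0.04. PLOD1, a collagen lysyl hydroxylase, had 102, 114 and 112 CPM in control and 98.2, 96.5 and 96.2 CPM in RBM24 libraries. ERO1A, the oxidase of disulfide formation in the endoplasmic reticulum, had 252, 238 and 236 CPM against 208, 218 and 225 CPM. Both groups of libraries are separate for each gene, with log2 fold changes of -0.18 (edgeR adjusted p = 0.116) and -0.16 (edgeR adjusted p = 0.166). Without control library 1, edgeR gave PLOD1 -0.22 with an adjusted p of 0.0374, and with the GC offset -0.19 with 0.0115.

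Among 18 other glycolytic isozymes 9 were tested, and the other 9, among them PKLR, PGK2 and LDHC, were below the filter on low counts. None had an unadjusted p under 0.05, and PFKFB2, a further bifunctional kinase, had a log2 fold change of 0.17 (edgeR adjusted p = 0.418). PFKFB1, the liver-type member of that family, had 0.291, 0.223 and 0.207 CPM in control and 0.130, 0.185 and 0.130 CPM in RBM24 libraries. All of the latter were lower at this very low level, with a log2 fold change of -0.70 (SE 0.39, edgeR adjusted p = 0.478). Of the 13 genes for pyruvate entry into mitochondria, 12 were tested, none had an unadjusted p under 0.05, and each interval lay within 1.25-fold. DLD, a shared dehydrogenase subunit, had -0.08 and PDP2, a pyruvate dehydrogenase phosphatase, -0.10 on the log2 scale. All 7 pentose phosphate genes were tested, and RPIA, the ribose phosphate isomerase, had 28.7, 29.05 and 27.5 CPM against 31.6, 30.8 and 31.3 CPM, higher in each RBM24 library, with a log2 fold change of 0.14 (edgeR adjusted p = 0.320). TKT, transketolase, had -0.05.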

How the data were processed

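Total RNA of 6 CAL27 libraries was read as 150-nt pairs, per the labels. HISAT2 and GRCh38 are the tool and build named, per the submitters' processing notes. Not given in the sources used here are the aligner version, the counter, its annotation and its use of strand. The authors deposited raw whole-number counts per gene and FPKM values rounded to 2 decimals. Columns named NC were read as control plasmid libraries.

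Counts were fitted in edgeR 4.0.16 (R 4.3.3) with TMM factors, filterByExpr (minimum count 10) and a quasi-likelihood F test on group alone, with Benjamini-Hochberg adjustment over all 17887 tested genes and a threshold of 0.05. CPM divides each count by the TMM-scaled library total, and a fold change is RBM24 over control. FPKM values served for levels and isozyme shares. Positions come from GENCODE 29 on GRCh38 and promoter windows from RefSeq. The model leaves 4 residual degrees of freedom.

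The 35 members, the other lists and the tests were chosen with earlier results of these data known. Named genes are RBM24, all members, and of each other pathway list those called plus up to 2 with the smallest p; genes named for a count, a call under 1 setting or an overlap were added after their values were seen. Alternatives were other scalings and filters, DESeq2 1.42.0, limma-voom (limma 3.58.1), limma on log2(FPKM + 1) and log2(FPKM + 0.1), the replicate number as a block, an adjusted p under 0.1, each library left out in turn and, added after seeing the data, a GC offset and non-overlap on FPKM. Some listed genes are not reported here by name.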

Additional observations from a re-analysis of the deposited data

How the results depend on the processing

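Over 44 named genes and their alternatives, 756 of 789 fitted changes kept their sign and their side of the threshold, 25 turned sign (in 10 genes) and 8 passed the threshold, while none lost a call because none was called. The medians of all members, HIF targets and core enzymes moved by less than the spread between replicates in every alternative, though those of all members and HIF targets turned sign under some.

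Members called higher stayed at 0 except with 1 library left out, where they ranged from 0 to 1 (NDRG1, without control library 1). Members called lower were 1 without the filter on low counts (PDK1), 1 with the GC offset (PFKL) and 0 to 1 with 1 library left out (PDK1, without control library 2). Other pathway genes called higher were 1 in DESeq2 (HIF1AN), 1 with the GC offset (HIF1AN) and 0 to 1 with 1 library left out (CREBBP, without control library 3). Those called lower were 1 without the filter (PLOD2), 1 with the GC offset (PLOD1) and 0 to 1 with 1 library left out (PLOD1 without control library 1, PLOD2 without control library 2). The cause was not tested.

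Over all genes, calls higher and lower were 305 and 341 without the filter, 53 and 4 on log2(FPKM + 1), 67 and 7 on log2(FPKM + 0.1), 16 and 4 on log2(FPKM + 1) without a filter, 332 and 205 with the GC offset, and 262 and 193 at an adjusted p under 0.1. With 1 library left out they ranged from 61 to 171 and from 29 to 198: 70 and 31 without RBM24 library 1, 61 and 29 without RBM24 library 2, and for lower calls 69 without control library 1 and 198 without control library 3. Of all calls, 55.6% were higher with TMM, 67.8% with total counts only, 47.2% without the filter, 93.0%, 90.5% and 80.0% on the 3 FPKM scales, and 39.6% to 69.3% with 1 library left out.

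The signs that turned belong to changes near 0. HIF1A was 0.0199 and GPI -0.000745 with the GC offset. EGLN1 was 0.0124 with total counts only and 0.0145, 0.0161 and 0.0145 on the FPKM scales, where GAPDH was 0.0149 in each; GAPDH was 0.012 with total counts only. With 1 library left out, log2 fold changes ranged from -0.106 to 0.0146 for HIF1A, -0.0697 to 0.065 for EGLN1, -0.0203 to 0.0505 for EGLN3, -0.000216 to 0.0633 for SLC2A1, -0.108 to 0.0228 for VEGFA, -0.111 to 0.00737 for BNIP3L, -0.153 to 0.0306 for P4HA1, -0.0308 to 0.0465 for P4HA2, -0.00883 to 0.0396 for GPI and -0.0466 to 0.0321 for GAPDH.

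Same-numbered libraries did not deviate together (correlations 0.00724, 0.0555 and -0.00039), so the numbers were not taken as pairs. With the replicate number as a block, 158 genes were called higher and 135 lower, 0 of them members, and 11 members had an unadjusted p under 0.05. Depth limits SLC2A3, at 8 and 20 summed counts, and widens the interval of PFKFB4.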
